A study of Homo sapiens with 6 samples.

Results

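The YAP-TEAD pathway was examined through 10 genes chosen by symbol, which were YAP1, TEAD1, TEAD4, LATS1, LATS2, AMOTL1, AMOTL2, CTGF, CYR61 and ANKRD1. All 10 were found among the 23686 genes of the count tables, where CTGF and CYR61 are the older symbols of CCN2 and CCN1, and all 10 were among the 14582 genes with enough reads to be tested. The libraries came from HEK293, an established human embryonic kidney line, in which the sampled cells carried GFP (green fluorescent protein). The ROS co-culture group (3 libraries) was grown for 10 h with HEK293 cells that carry DAAO and produce reactive oxygen species (ROS), with 25 µM D-alanine, and GFP-positive cells were then sorted by flow cytometry. The control group (3 libraries) held sorted GFP-positive cells labelled Wt controls. A single treatment text, with the 10 h and the 25 µM D-alanine, covers all 6 samples, controls included. It does not make clear whether the controls received D-alanine or partner cells. Any effect of D-alanine or of partner cells as such therefore cannot be told apart from that of ROS. The study asked how the transcriptome of cells differs when their neighbours produce ROS.

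YAP1 is a transcriptional co-activator that has no DNA-binding domain of its own and reaches its target genes through the TEAD transcription factors. The Hippo kinases LATS1 and LATS2 phosphorylate YAP1, which keeps it in the cytoplasm or sends it for degradation, and the angiomotin-like proteins AMOTL1 and AMOTL2 bind it at cell junctions and on actin. CTGF, CYR61 and ANKRD1 are the target genes most often used to read the activity of the pathway, and AMOTL2 and LATS2 are also targets that feed back on it. HEK293 cells are a common system for studying this pathway, which responds to cell density, to the cytoskeleton and to serum.

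TEAD factors recognise the letters GGAATG. The windows shown are those of the direct YAP-TEAD targets CTGF, ANKRD1 and AMOTL2 that hold these letters. The window of LATS2, also a target, and the first AMOTL2 window hold no copy and are not shown. RefSeq promoter windows (GRCh38.p14) were matched for 7 of the 10 genes, which left CYR61, TEAD1 and TEAD4 without one. Each sequence covers the 250 bases before the annotated start, 5′ to 3′ on the gene's strand, and capitals mark GGAATG or its reverse complement CATTCC. The windows are chr6:131951373-131951622 (minus strand) for CTGF, chr10:90921088-90921337 (minus strand) for ANKRD1 and chr3:134374448-134374697 (minus strand) for the second of 2 AMOTL2 windows.
CTGF: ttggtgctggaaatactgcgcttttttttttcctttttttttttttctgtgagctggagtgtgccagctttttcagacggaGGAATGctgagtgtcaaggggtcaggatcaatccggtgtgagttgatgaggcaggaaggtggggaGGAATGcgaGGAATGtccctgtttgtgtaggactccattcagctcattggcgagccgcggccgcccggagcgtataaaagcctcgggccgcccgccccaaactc
ANKRD1: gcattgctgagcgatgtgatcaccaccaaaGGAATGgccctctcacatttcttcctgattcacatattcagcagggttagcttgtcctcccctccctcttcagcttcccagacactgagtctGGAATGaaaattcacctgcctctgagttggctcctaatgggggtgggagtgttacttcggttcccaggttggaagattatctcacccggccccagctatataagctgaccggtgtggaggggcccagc
AMOTL2: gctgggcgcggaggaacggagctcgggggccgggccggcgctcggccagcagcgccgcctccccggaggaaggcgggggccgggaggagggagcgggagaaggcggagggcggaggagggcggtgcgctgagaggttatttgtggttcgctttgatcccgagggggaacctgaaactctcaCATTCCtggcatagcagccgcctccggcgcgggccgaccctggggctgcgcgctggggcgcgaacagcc

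The CTGF window held 3 copies of the TEAD letters, with 5′ ends 169, 104 and 95 bases before the start. ANKRD1 held 2 copies, at 220 and 128 bases, AMOTL2 held 1 at 69 bases and YAP1 held 1 at 162 bases. No copy lay in the windows of AMOTL1, LATS1 or LATS2, or in the other AMOTL2 window. Of 35116 RefSeq windows of the same length, 11.9% held at least 1 copy on either strand, 0.940% at least 2 and 0.0826% (29 windows) at least 3. The AP-1 letters TGANTCA, searched likewise, occurred in 6.57% of all windows and, among these genes, in ANKRD1 (195 bases before the start, clear of the TEAD letters) and in 1 of 2 LATS1 windows. The CArG box bound by SRF was in 1.16% of all windows and in no window of these genes. Such matches describe the letters only.

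Gene-assigned reads ran from 19091085 to 21357413 in 4 libraries and were 26127509 in control 3 and 36250314 in co-culture 3. Control 1 stood apart from the other controls, with a chi-square per degree of freedom over genes of 10.8 and 18.5 against controls 2 and 3, which differed from each other by 4.73. Co-culture 3 stood apart likewise, with 13.4 and 12.2 against co-culture 1 and 2, which differed by 4.74. Co-culture libraries 2 and 3 had a median share of wrong-strand reads of 0.124% and 0.211%, against 1.57% to 1.75% in the other 4 libraries, so this strand class cannot be told apart from the treatment except through co-culture 1. All 7 genes listed as HEK293 lineage markers were tested, with a summed level of 315 to 372 CPM (reads scaled to library size with TMM factors) in the controls and 373 to 392 CPM in co-culture. Lists of 4 endothelial and 4 blood markers had no tested gene and summed to at most 0.250 CPM in any library, with CLDN5, CD3E and HBB at 0 reads. Of 6 fibroblast markers, COL1A2, DCN and PDGFRB were under 1 CPM, and the summed level was 44.8 to 59.8 CPM in the controls and 49.2 to 53.6 CPM in co-culture. The 3 tested members differed in direction: LUM fell (log2 fold change -0.67, adjusted edgeR p 0.0293), and COL3A1 at -0.95 and COL1A1 at 0.28 did not pass (adjusted edgeR p 0.159 and 0.131). The part of these markers in the results was not tested. In bulk RNA, fewer cells with a transcript and less transcript per cell cannot be told apart. The labels do not say whether the 3 samples of a group came from separate cultures, so the p-values measure the spread between these samples, which may be technical.

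None of the 10 genes passed an adjusted p of 0.05 in edgeR's quasi-likelihood test, where 4.83% of all tested genes did (2.66% higher and 2.17% lower in co-culture). The direct targets CTGF, CYR61 and ANKRD1 nevertheless stood higher in every co-culture library than in every control, and so did TEAD4. That is 4 of 10 genes without overlap, all in 1 direction, where 29.3% of all tested genes had no overlap and 14.3% had none with co-culture higher. CTGF, CYR61 and ANKRD1 do not count as 3 separate observations. Their Pearson r of log2 CPM over the 6 libraries was 0.974 (CTGF and CYR61), 0.994 (CTGF and ANKRD1) and 0.989 (CYR61 and ANKRD1). At an unadjusted p under 0.05 there were 3 of the 10 genes (CYR61, ANKRD1 and TEAD4), against 23.2% of all genes. DESeq2 called 2 of the 10, CYR61 and ANKRD1, where it called 7.52% of the genes it gave an adjusted p, and limma-voom called 0 where it called 4.63%. CYR61 alone passed in edgeR with upper quartile scaling (5.29% of all genes called) and with unstranded counts (4.46%), and none of the 10 passed with total counts (6.05%), with no filter on low counts (4.5%) or with a stricter one (5.24%). The median fitted log2 fold change (co-culture minus control) was 0.15 over the 10 genes, 7 of them above 0, and 0.00 over all tested genes.

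**Figure D1:**
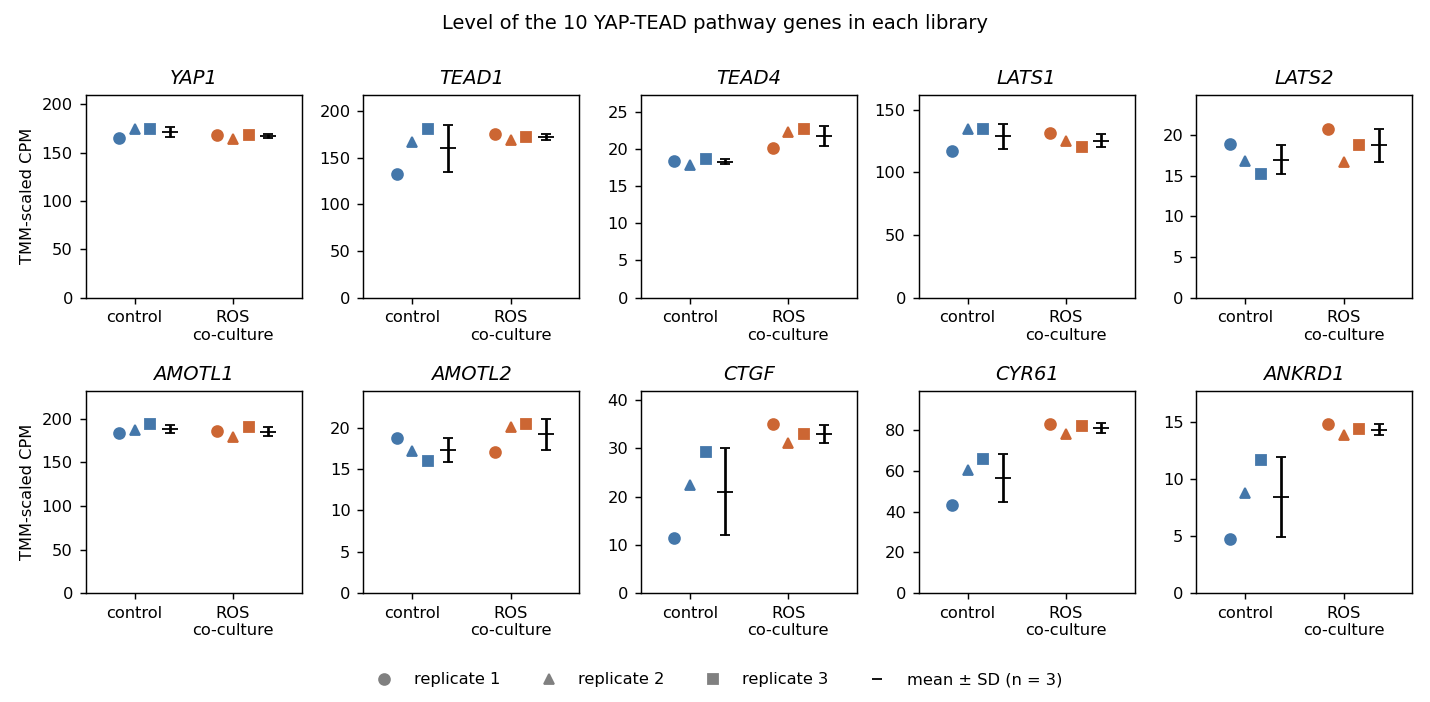
TMM-scaled CPM of each of the 10 genes in the 3 control (blue) and 3 ROS co-culture (orange) libraries, one panel per gene with its own axis from 0; symbols give the replicate number and bars the mean ± SD (n = 3). CTGF, CYR61, ANKRD1 and TEAD4 show no overlap between the groups, and control 1 holds the lowest of the 6 values for CTGF, CYR61, ANKRD1, TEAD1 and LATS1.

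YAP1 itself had the steadiest levels of the 10 genes in co-culture, and its fitted change was near 0. It stood at 166, 175 and 174 CPM in controls 1, 2 and 3 and at 168, 164 and 168 CPM in co-culture 1, 2 and 3. The groups overlapped, and the 6 values lay within a narrow band. The log2 fold change of YAP1 was -0.04 (SE 0.06, 95% interval -0.16 to 0.09, adjusted edgeR p 0.732). The interval leaves room for small shifts only, and it concerns the mRNA, since localisation and phosphorylation of YAP1 were not measured.

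TEAD1 and TEAD4 are 2 of the 4 DNA-binding partners of YAP1. TEAD1 stood at 133, 167 and 181 CPM in the controls and at 175, 170 and 172 CPM in co-culture. Control 1 was low and the other 5 libraries overlapped. Its log2 fold change was 0.10 (SE 0.10, 95% interval -0.11 to 0.32, adjusted edgeR p 0.558), and without control 1 it was -0.01 (adjusted edgeR p 0.874).

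TEAD4 differed from TEAD1 in that its controls lay close together. It stood at 18.3, 17.9 and 18.6 CPM in the controls, from 363, 343 and 485 reads. In co-culture it stood at 20.2, 22.2 and 22.7 CPM, so that every co-culture library was above every control. Counting error at such read numbers exceeds the spread of these controls, so their closeness cannot be taken as a trait of the gene. The log2 fold change was 0.25 (SE 0.08, 95% interval 0.07 to 0.43, edgeR p 0.0115, adjusted edgeR p 0.103). With strand class as batch term it was 0.14 (adjusted edgeR p 0.661), which rests on co-culture 1, the lowest of the co-culture values.

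The kinase LATS1 had 117, 134 and 135 CPM in the controls and 131, 125 and 120 CPM in co-culture, with overlapping groups. Its log2 fold change was -0.04 (SE 0.07, 95% interval -0.19 to 0.11, adjusted edgeR p 0.777). LATS2, its paralogue and itself a target of YAP, had 18.9, 16.8 and 15.3 CPM in the controls and 20.8, 16.7 and 18.8 CPM in co-culture. These ranges overlapped as well, with a log2 fold change of 0.15 (SE 0.11, 95% interval -0.09 to 0.39, adjusted edgeR p 0.454).

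AMOTL1, an angiomotin-like scaffold of cell junctions, had an SD among the controls of 2.60% of its mean, against 1.97% for TEAD4, 2.92% for YAP1 and 43.1% for CTGF. The TEAD4 value rests on far fewer reads (343 to 485 per control, against 3579 to 5039 for AMOTL1). AMOTL1 stood at 184, 187 and 193 CPM in the controls and at 186, 179 and 190 CPM in co-culture. The groups overlapped, and the log2 fold change was -0.02 (SE 0.06, 95% interval -0.15 to 0.10, adjusted edgeR p 0.857).

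AMOTL2, a direct YAP target as well as an inhibitor of YAP, did not follow CTGF. It stood at 18.8, 17.2 and 15.96 CPM in the controls and at 17.1, 20.1 and 20.4 CPM in co-culture. Co-culture libraries 2 and 3 were above the controls and co-culture 1 lay among them. The log2 fold change was 0.15 (SE 0.10, 95% interval -0.07 to 0.38, adjusted edgeR p 0.388), and with strand class as batch term it was -0.02.

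CTGF encodes a secreted matricellular protein and is the most used reporter gene of YAP-TEAD activity. It stood at 11.4, 22.4 and 29.3 CPM in controls 1, 2 and 3, from 225, 430 and 765 reads. In co-culture it stood at 35.0, 31.1 and 33.0 CPM, from 699, 655 and 1182 reads. All co-culture libraries were above all controls, but the gap to control 3 was far smaller than the spread within the controls. The means were 33.0 ± 1.93 CPM in co-culture, against 21.0 ± 9.07 CPM in the controls (SD, n = 3 each). The log2 fold change was 0.64 (SE 0.32, 95% interval -0.14 to 1.42, adjusted edgeR p 0.294).

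CYR61, a second member of the same CCN family of secreted proteins, had 43.4, 60.4 and 65.9 CPM in the controls and 82.6, 77.9 and 82.0 CPM in co-culture. Its groups did not overlap, and control 1 was again the lowest. The means were 80.8 ± 2.57 CPM in co-culture, against 56.6 ± 11.8 CPM in the controls (SD, n = 3 each). The log2 fold change was 0.51 (SE 0.13, 95% interval 0.22 to 0.81, edgeR p 0.00349), and the adjusted edgeR p of 0.0589 was the lowest of the 10 genes.

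ANKRD1 encodes an ankyrin-repeat protein of muscle and stressed cells that is induced through YAP-TEAD. It was the scarcest of these 3 targets by CPM, at 4.75, 8.82 and 11.7 CPM in the controls and 14.8, 13.9 and 14.4 CPM in co-culture. The groups did not overlap, and control 1 was the lowest and control 3 the highest of the controls, as for CTGF and CYR61. The means were 14.4 ± 0.469 CPM in co-culture, against 8.42 ± 3.49 CPM in the controls (SD, n = 3 each). Its log2 fold change of 0.75 was the largest of the 10 genes (SE 0.26, 95% interval 0.17 to 1.34, edgeR p 0.0177, adjusted edgeR p 0.129).

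**Figure D2:**
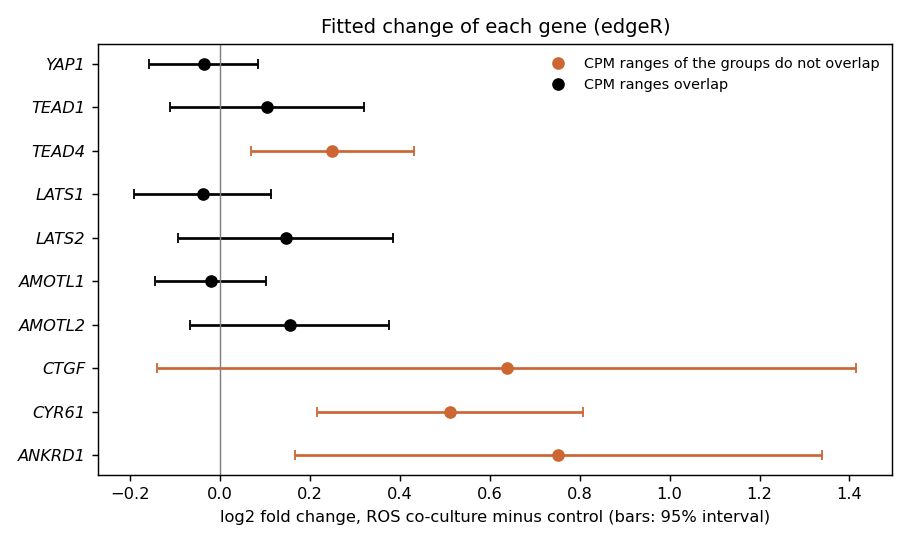
Fitted log2 fold change (ROS co-culture minus control, edgeR, 3 libraries against 3) of the 10 genes with 95% intervals on the horizontal axis; orange marks genes whose CPM ranges do not overlap between the groups. The intervals of CYR61 (0.22 to 0.81), ANKRD1 (0.17 to 1.34) and TEAD4 (0.07 to 0.43) lie above 0, that of CTGF (-0.14 to 1.42) is the widest, and no gene has an adjusted p under 0.05.

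CTGF, ANKRD1 and CYR61 spread more widely among the controls than in co-culture. The highest control exceeded the lowest by 2.58 times for CTGF and 2.46 times for ANKRD1, larger ratios than those of 99.8% and 99.7% of the 11647 genes with a mean of at least 5 CPM. For CYR61 the ratio was 1.52, above 94.95% of these genes, and for TEAD1 1.36, above 89.4%. In co-culture the same ratios were 1.12, 1.07, 1.06 and 1.03 for CTGF, ANKRD1, CYR61 and TEAD1, with a median of 1.09 over all these genes. The median ratio among the controls was 1.15. AMOTL2 and LATS2, also targets of YAP, spread alike in both groups, with ratios of 1.18 and 1.23 in the controls and 1.195 and 1.242 in co-culture, where the latter exceeded those of 86.4% and 91.9% of these genes. For LATS1 and YAP1 the control ratios were 1.15 and 1.05.

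The fitted differences of CTGF, CYR61 and ANKRD1 moved with either of 2 controls, down without control 1 and up without control 3. For TEAD4 the log2 fold change was 0.25 with and without control 1. Without control 1 the log2 fold changes of CTGF, CYR61, ANKRD1 and TEAD4 were 0.34, 0.35, 0.47 and 0.25, and all 4 passed, with adjusted edgeR p-values of 0.0291, 0.000572, 0.00815 and 0.0439. In that fit 20.8% of all tested genes passed. Without control 3 the log2 fold changes of CYR61 and ANKRD1 were 0.64 and 1.08 and both passed (adjusted edgeR p 0.0155 and 0.0161), with 5% of all genes called, while CTGF at 0.97 did not (adjusted edgeR p 0.149). None of the 10 passed without control 2, where 0.44% of all genes did, or without co-culture 1, 2 or 3, where 0.831%, 0.503% and 2.18% did. Across the 16 alternative analyses the edgeR, DESeq2 or limma-voom adjusted p ran from 0.0291 to 0.554 for CTGF, from 0.000572 to 0.315 for CYR61, from 0.00815 to 0.438 for ANKRD1 and from 0.0439 to 0.661 for TEAD4.

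**Figure D3:**
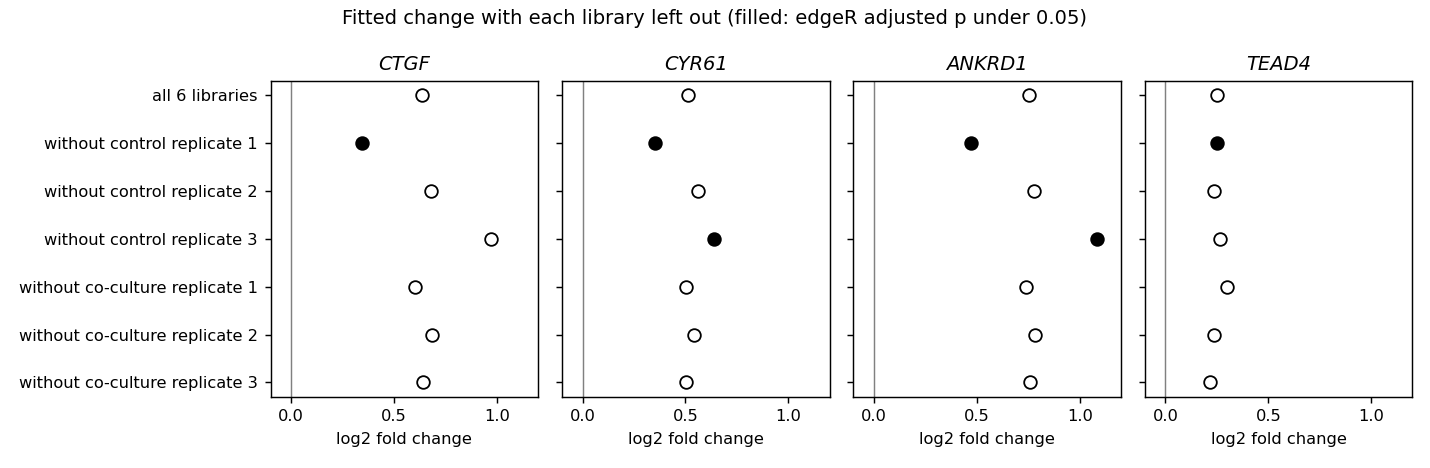
Fitted log2 fold change (ROS co-culture minus control, horizontal axis) of CTGF, CYR61, ANKRD1 and TEAD4 with all 6 libraries and with each library left out in turn; filled points have an adjusted edgeR p under 0.05. Leaving out control 1 lowers CTGF from 0.64 to 0.34, CYR61 from 0.51 to 0.35 and ANKRD1 from 0.75 to 0.47. All 4 points of that row are filled.

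Within the strand class of the controls, CTGF, CYR61 and ANKRD1 kept their direction and AMOTL2 did not. Co-culture 1, which shares its class with the controls, stood above all 3 controls for CTGF, CYR61, ANKRD1, TEAD4 and LATS2, while for AMOTL2 its 17.1 CPM lay below the control mean of 17.3 CPM. With this class as a batch term, which compares co-culture 1 with the controls, the log2 fold changes of CTGF, CYR61 and ANKRD1 were 0.72, 0.54 and 0.80. Their adjusted edgeR p-values were 0.554, 0.315 and 0.438, in a fit that called 0.199% of all tested genes.

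Ratios of related genes within a library do not depend on how the libraries are scaled, and 4 were formed after the values had been seen. The log2 ratio of CTGF to CYR61 reads was -1.93, -1.43 and -1.17 in the controls and -1.24, -1.32 and -1.31 in co-culture, so CTGF was low relative to CYR61 in control 1. The log2 ratio of TEAD4 to TEAD1 was -3.12 ± 0.231 in the controls and -2.99 ± 0.113 in co-culture (SD, n = 3 each). The mean differences (co-culture minus control) were 0.22 for CTGF/CYR61, 0.17 for AMOTL2/AMOTL1, 0.18 for LATS2/LATS1 and 0.13 for TEAD4/TEAD1. The 2-sided exact permutation p-values were 0.5, 0.3, 0.4 and 0.4, each 0.5 after Benjamini-Hochberg adjustment over the 4 ratios, where 3 libraries against 3 cannot give less than 0.1.

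Per length of the principal transcript in GENCODE 29, the 10 genes formed a wide range of levels. YAP1 and CYR61 were the highest, at 31.3 and 30.0 CPM per kb as means of 6 libraries, with ranges of 30.4 to 32.3 and 18.9 to 36.1 that overlapped. AMOTL1 (20.8), TEAD1 (19.6) and LATS1 (16.9 CPM per kb) followed, of which TEAD1, at 15.7 to 21.4, overlapped both neighbours. TEAD4 and CTGF had 11.8 and 11.6 CPM per kb, with ranges of 10.6 to 13.4 and 4.86 to 15.0. ANKRD1 (5.76), AMOTL2 (4.04) and LATS2 (3.24 CPM per kb) were the lowest, with ranges of 2.40 to 7.48, 3.53 to 4.51 and 2.77 to 3.77 that overlapped between neighbours. Per length of all exons of a gene the order within the pairs YAP1 and CYR61, TEAD4 and CTGF, and AMOTL2 and LATS2 was the opposite.

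The other genes of the pathway were described through 8 lists of 113 distinct genes, 108 of them tested. Of these, 6 passed the threshold (4 higher and 2 lower in co-culture), or 5.56%, close to the 4.83% of all tested genes, and their median log2 fold change was 0.03. In a list of 26 further YAP-TEAD target genes, 25 were tested, 2 rose, 1 fell and 22 did not pass, with a median log2 fold change of 0.10. The groups did not overlap for 8 of the 25, where 29.3% of all tested genes had no overlap.

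F3, which encodes tissue factor, the initiator of blood clotting, was the YAP target with the clearest increase. It stood at 8.49, 8.24 and 7.21 CPM in the controls and at 12.7, 11.7 and 11.8 CPM in co-culture. The groups were well apart, and control 1 was not low for this gene. F3 rose by a log2 fold change of 0.60 (SE 0.11, adjusted edgeR p 0.0178), and it was 0.67 with strand class as batch term (adjusted edgeR p 0.189).

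THBS1, encoding the matrix protein thrombospondin-1, stood at 9.96, 12.3 and 11.3 CPM in the controls and at 13.5, 16.5 and 16.6 CPM in co-culture. The groups did not overlap, and THBS1 rose by a log2 fold change of 0.48 (SE 0.12, adjusted edgeR p 0.0457). With strand class as batch term its log2 fold change was 0.27 (adjusted edgeR p 0.516).

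FOXF2, a forkhead transcription factor, went the other way. It stood at 49.5, 49.2 and 52.1 CPM in the controls and at 39.0, 42.0 and 38.9 CPM in co-culture, without overlap. FOXF2 fell by 0.33 on the log2 scale (SE 0.07, adjusted edgeR p 0.0214), and its log2 fold change with strand class as batch term was -0.37 (adjusted edgeR p 0.234). F3 and FOXF2 each passed in 10 of the 16 alternatives and THBS1 in 7. The lost calls of F3 and FOXF2 came with the replicate block, with the strand class and without control 2 or any co-culture library, and THBS1 also lost its call with total counts (0.45, adjusted edgeR p 0.0512), with upper quartile scaling and without control 3.

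Of the TEAD partners and the YAP paralogue, 6 of 7 genes were tested and none passed, with a median log2 fold change of 0.01. An unadjusted edgeR p under 0.05 was found for 2 of the 6, against 23.2% of all tested genes. They went in opposite directions, VGLL2 at -0.58 and VGLL3 at 0.23 (adjusted edgeR p 0.0761 and 0.176). WWTR1, which encodes the YAP paralogue TAZ, stood at 55.8 ± 2.76 CPM in co-culture, against 54.5 ± 2.88 CPM in the controls (SD, n = 3 each). TEAD2 stood at 43.5 ± 0.886 and 43.9 ± 4.78 CPM, and VGLL4, which competes with YAP for TEAD, at 57.3 ± 3.85 and 61.2 ± 8.43 CPM. VGLL1 had 0 reads in all 6 libraries, which allows 0.0838 to 0.156 CPM depending on the library, for counting error only.

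None of the 21 Hippo kinases and adaptors passed, with a median log2 fold change of 0.05. An unadjusted edgeR p under 0.05 was found for 4 of the 21, against 23.2% of all tested genes. STK4, the kinase MST1 that activates LATS1 and LATS2, stood at 126 ± 6.54 CPM in co-culture, against 122 ± 7.69 CPM in the controls. TAOK1 and MAP4K4, which act upstream of or beside it, stood at 407 ± 13.5 against 386 ± 46.1 CPM and at 276 ± 4.64 against 279 ± 11.5 CPM (SD, n = 3 each). Of the 13 Hippo inhibitors, which include the STRIPAK phosphatase complex, none passed, with a median of -0.04. An unadjusted edgeR p under 0.05 was found for 0 of the 13, against the same 23.2%. PPP2R1A, a scaffold subunit of that phosphatase, had a log2 fold change of -0.12, and the values of DLG5 and STRN4 were -0.08 and -0.04.

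None of the 18 junction and polarity regulators passed, with a median log2 fold change of 0.00. An unadjusted edgeR p under 0.05 was found for 4 of the 18, against 23.2% of all tested genes. The groups did not overlap for 4 of the 18 genes, where 29.3% of all tested genes had no overlap. CDH2 (N-cadherin), CTNNA1 (alpha-catenin) and AMOT had the highest mean CPM of the list. CDH2 stood at 278 ± 3.79 CPM in co-culture, against 242 ± 11.3 CPM in the controls, and CTNNA1 at 513 ± 9.46 and 457 ± 13.2 CPM (SD, n = 3 each). Their log2 fold changes of 0.20 and 0.17 had adjusted edgeR p-values of 0.0760 and 0.125. AMOT, the founding angiomotin, stood at 463 ± 7.78 and 469 ± 26.5 CPM.

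Among 11 genes of YAP retention and turnover, 1 fell and 10 did not pass, where 4.83% of all tested genes passed. The median log2 fold change of the 11 was 0.00. CSNK1D encodes a casein kinase that acts on YAP after LATS has primed it for degradation. The gene stood at 260, 251 and 276 CPM in the controls and at 202, 211 and 215 CPM in co-culture. The groups did not overlap, and CSNK1D fell by 0.32 on the log2 scale (SE 0.06, adjusted edgeR p 0.0176). The 14-3-3 genes YWHAE and YWHAZ, whose proteins hold phosphorylated YAP in the cytoplasm, had log2 fold changes of -0.03 and 0.07 (adjusted edgeR p 0.867 and 0.655). CSNK1D passed in 11 of the 16 alternatives, with log2 fold changes from -0.38 to -0.28. It did not pass with the replicate block, with strand class as batch term (-0.38, adjusted edgeR p 0.189) or without control 2, co-culture 1 or co-culture 2.

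CTGF and CYR61 were the CCN genes with substantial expression. NOV (CCN3) stood at 7.52 ± 0.707 CPM in co-culture, against 8.71 ± 1.33 CPM in the controls (SD, n = 3 each), with a log2 fold change of -0.20 (adjusted edgeR p 0.440). The other 3 genes of the family were not tested, of which WISP1 and WISP3 had 0 reads in every library and WISP2 had 6 reads in all.

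Many genes respond to both YAP-TEAD and SRF-MRTF, the actin-controlled transcription pathway, so 15 SRF-MRTF target genes were set beside the 10 genes. Of these 15, 2 rose (13.3%) and 13 did not pass, with a median log2 fold change of 0.06. Of all tested genes, 4.83% passed in either direction. The fitted values were above 0 for 8 of the 15 and below 0 for 7, lowest for MYL9 at -0.40 (adjusted edgeR p 0.310). The groups did not overlap for 5 of the 15, against 29.3% of all tested genes. VCL, encoding the focal-adhesion protein vinculin, stood at 234, 223 and 222 CPM in the controls and at 294, 291 and 292 CPM in co-culture. The groups were tight and far apart, and VCL rose by a log2 fold change of 0.37 (SE 0.06, adjusted edgeR p 0.00666). TAGLN2, an actin-binding protein of the transgelin family, rose by 0.42 (SE 0.07, adjusted edgeR p 0.0134), from 534 ± 19.8 to 716 ± 63.3 CPM (SD, n = 3 each). ACTG1, cytoplasmic gamma-actin, had a log2 fold change of -0.07 (adjusted edgeR p 0.611). VCL and TAGLN2 each passed in 13 of the 16 alternatives and missed the threshold with strand class as batch term (0.38 and 0.30, adjusted edgeR p 0.163 and 0.287), without control 2 and without co-culture 2. Whether the 10 genes and the SRF-MRTF list differ was not tested.

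**Figure D4:**
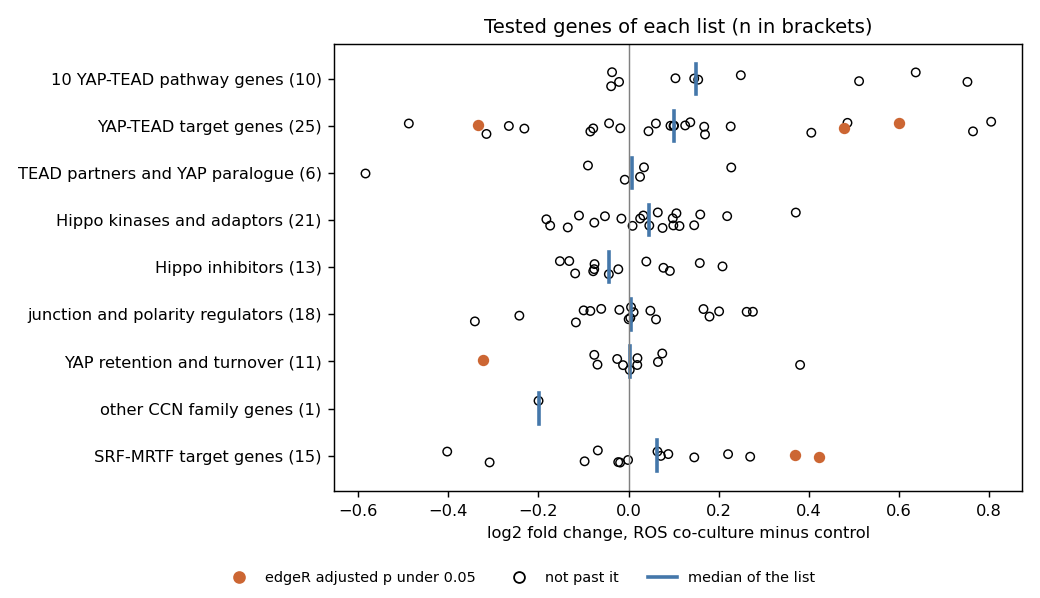
Fitted log2 fold change (ROS co-culture minus control, horizontal axis) of each tested gene, by list, for the 10 YAP-TEAD pathway genes and the 8 lists; filled orange points have an adjusted edgeR p under 0.05 and blue bars are list medians. The medians lie between -0.20 (the 1 tested gene of the other CCN family) and 0.15 (the 10 genes), and the filled points are F3, THBS1, FOXF2, CSNK1D, TAGLN2 and VCL.

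The genes whose pattern across the 6 libraries was most like that of CTGF, by Pearson r of log2 CPM over 11637 other genes with a mean of at least 5 CPM, were TUFT1 (0.997), MED14 (0.996) and EPRS (0.996). Their fitted log2 fold changes were 0.18, 0.12 and 0.19, far smaller than that of CTGF, and none passed (adjusted edgeR p 0.254, 0.347 and 0.208). Most like CYR61 were HSPA13 (0.997), SMAD7 (0.997) and PLS3 (0.995). SMAD7, the inhibitory SMAD of TGF-beta signalling, rose from 45.6, 65.9 and 70.1 CPM in the controls to 94.7, 89.5 and 96.9 CPM in co-culture, with a log2 fold change of 0.63 (SE 0.14, adjusted edgeR p 0.0402). It had the low control 1 and the even co-culture levels of CYR61, and passed in 9 of the 16 alternatives. With 6 libraries such likeness is common, since 529 and 490 genes had an r over 0.9 with CTGF and CYR61, and the values share the group difference and the low control 1.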

How the data were processed

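RNA was extracted with TriPure and sequenced from stranded mRNA libraries, per the labels' protocols. The deposited values are raw read counts per gene, 1 file per library, in STAR's layout of 4 summary lines and 3 count columns. STAR 2.53a, FastQC and the build hg18 are named in the submitters' processing notes, and the gene annotation is not given in the sources used here. Reads on the reverse strand were used, and the summary lines were left out: in each library 1.22% to 1.67% of reads were unmapped, 6.48% to 8.42% multimapping, 14.8% to 17.7% in no gene and 0.835% to 1.01% ambiguous. Forward-strand reads were 0.347% to 2.84% of the reads over each of the 10 genes.

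Groups came from the sample titles. Genes were filtered with filterByExpr (minimum count 10), scaled by TMM and fitted with edgeR 4.0.16 (R 4.3.3) by group, with robust quasi-likelihood F tests and Benjamini-Hochberg adjustment over all tested genes at 0.05. CPM values are TMM-scaled, and SE is the absolute log2 fold change over the square root of F. Chi-squares per degree of freedom between libraries of a group were 4.73 to 18.5, so each was counted as a sample. A single read was worth 0.0279 to 0.0522 CPM. The members and lists were chosen with earlier results of these data known. Named list genes were those past the threshold (up to 5 per list), filled up to 3 by mean CPM, and the 3 genes most like CTGF and CYR61. Alternatives used other scalings, filters, DESeq2 1.42.0, limma 3.58.1 (voom), unstranded counts, a replicate block, the strand class (split at the largest gap) and leaving out each library. The scripts were tested on simulated data. Of the list genes, 6 were found under older symbols.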

Additional observations from a re-analysis of the deposited data

How the results depend on the processing

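Of 160 values of the 10 genes over 16 alternatives, 145 kept direction and side of the threshold, 10 passed it where the main analysis did not, and 5 changed sign. The number of the 10 genes called was 0, and 1 with upper quartile scaling (CYR61), 2 with DESeq2 and 1 with unstranded counts (CYR61); leaving out each library gave 0 to 4. Of all tested genes 704 passed, and leaving out each library gave 65 to 3069. They were 164 with the replicate block and 29 with strand class as batch term. Of the pathway list genes 6 passed, 10 with DESeq2, 2 with the replicate block, 0 with strand class as batch term (where 1824 genes in all had an unadjusted p under 0.05), and 0 to 24 with each library left out. Scaling by total counts gave 310 higher and 572 lower genes against 388 and 316, a share of higher genes of 35.1% against 55.1%.

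The replicate numbers are not said to pair the samples, and same-numbered libraries did not deviate together (r of -0.04, -0.08 and -0.09 across genes). With 3 libraries per group, centred within the group, these r values cannot settle whether the numbers mark pairs. The log2 fold changes that turned sign belonged to genes not called in the main analysis; the main values were 0.15 for AMOTL2, 0.10 for TEAD1 and 0.07 for YWHAZ. With strand class in the model they were AMOTL2 -0.018, LATS1 0.027, TEAD2 0.0040, MAP4K4 0.0104, AMOT 0.0058, YWHAE 0.0149 and YWHAZ -0.12, and TEAD2 was 0.0012 with limma-voom and 0.0017 with unstranded counts. Leaving out each library gave AMOTL1 -0.0368 to 0.0034, TEAD1 -0.0143 (without control 1) to 0.203, VGLL4 -0.176 to 0.0243, TEAD2 -0.0750 to 0.0815, TAOK1 -0.0190 to 0.143, MAP4K4 -0.0488 to 0.0084, STK4 -0.0015 to 0.0891, AMOT -0.0497 to 0.0268 and YWHAE -0.0844 to 0.0105. The cause of these changes was not tested. AMOTL2, LATS2, TEAD4, CTGF and ANKRD1 had the fewest reads, with 329, 323, 343, 225 and 94 in their lowest library. For CTGF and ANKRD1 the SD among the controls was 43.1% and 41.5% of the mean, a spread larger than counting error at such numbers.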
